A study of Gallus gallus with 9 samples.

Results

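During neurulation the ectoderm of the chick embryo divides into the neural plate, which forms the central nervous system (CNS), and the non-neural ectoderm (NNE), which forms the epidermis and, in the head, the cranial placodes. Between them lies the neural plate border, from which the neural crest (NC) arises. BMP signalling is known to favour the NNE, and BMP antagonists made near the midline to protect the neural plate. DLX5 and DLX6 are homeobox transcription factors of the NNE and its border, and SOX21 and SOX1 are SoxB transcription factors of the neural plate. The question here was which other genes separated NNE cells from neural cells in scRNAseq data of the midbrain level, and how that separation changed from the end of gastrulation to the 7-somite stage.

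Cells were placed in a class by the unique molecular identifiers (UMIs, counted RNA molecules) of these genes. A cell of the non-neural class had at least 1 UMI of DLX5 or DLX6 and 0 of SOX21 and SOX1. A cell of the neural class had at least 1 UMI of SOX21 or SOX1 and 0 of DLX5, DLX6 and TFAP2A, a further transcription factor of the NNE and NC. Cells of either class had 0 UMIs of TWIST1, SOX17, KDR and FOXD3, which mark mesoderm, endoderm, endothelium and NC. Of 75475 cells with at least 500 genes detected, taken from 97943 filtered barcodes in 8 libraries, 6219 fell in the non-neural class and 18801 in the neural class.

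All libraries came from wild-type, untreated chick embryos (genotype WT in the labels), from slices of the midbrain axial level that held every germ layer, pooled from several embryos per library. There were 2 libraries each at HH5 (stage 5 of Hamburger and Hamilton, when gastrulation ends), at 1 somite (1ss), at 4 somites (4ss) and at 7 somites (7ss), and 1 further library at HH11, which has no replicate and is described only at the end. The UMIs of all cells of a class were summed per library, which gave 16 sums of 1268052 to 29256341 UMIs. In such sums, fewer cells that express a gene and less RNA of it per cell cannot be told apart. Levels are given as UMIs of a gene per 1000000 UMIs of a sum (CPM).

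Some libraries stood apart. HH5 replicate 2 was shallow, with a median of 2157.5 UMIs per non-neural and 2366 per neural cell, against 4833 to 7749 and 3737 to 7074 in the other 7 libraries. The depth of the classes differed most at 7ss, with medians of 7749 and 6977 UMIs per non-neural against 3737 and 3812 per neural cell. In HH5 replicate 1 the medians were 7221.5 and 7074. The part of this depth gap in the changes with stage below was not tested. The 4ss replicates differed. In the non-neural class 4ss replicate 2 differed from 4ss replicate 1 by a median of 0.348 on the log2 scale over 4648 genes, but from the 7ss libraries by 0.162 and 0.163, and 4ss replicate 1 lay closer to the 1ss libraries. HSP90AA1, a chaperone gene, was at 1928 to 4029 CPM in the non-neural sums of HH5, 1ss and 4ss replicate 1, and at 282 to 559 CPM in those of 4ss replicate 2 and 7ss. This split fell between the 2 libraries labelled 4ss. The contrast of 7ss with HH5 lies across it, and there the split and developmental stage cannot be told apart. Any 2 libraries shared 7 to 115 cell barcodes.

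The genes of the rule are described without a test, because they chose the cells. In the non-neural sums DLX5 was at 192 to 480 CPM and DLX6 at 30.5 to 113 CPM. TFAP2A, which the rule used only to keep cells out of the neural class, was at 133 to 299 CPM there. In the neural sums SOX21 was at 249 to 498 CPM and SOX1 at 10.4 to 86.3 CPM, so that SOX21 carried most of the class: 72.9% of neural cells had UMIs of SOX21 and none of SOX1, and 67.1% of non-neural cells had DLX5 and no DLX6. The non-neural class held 6.20% and 4.94% of the kept cells at 7ss replicates 1 and 2 and 12.9% and 11.7% at HH5. The neural class held 17.3% and 9.78% at HH5 and 27.4% and 34.4% at 7ss. The dissection and the depth of a library set such shares as well as the tissue does, and their parts were not tested.

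Membership rested on few molecules. Cells just inside the threshold, with exactly 1 UMI of the class genes, made up 47.9% of the non-neural and 47.4% of the neural class. In these cells GATA2, a zinc-finger factor of early NNE, had a median over libraries of 82.0 CPM in the non-neural and 5.32 CPM in the neural class, against 93.2 and 2.41 CPM in the whole classes. Just outside lay 1957 cells with UMIs of both gene pairs, where GATA2 was at 43.1 CPM, and 33243 cells with neither, where it was at 17.8 CPM. CDH2 (N-cadherin, the adhesion molecule of the neural plate) ran the other way between the classes. It was at 45.5 CPM in the non-neural class, 110 CPM in the cells with both pairs and 173 CPM in the neural class. The cells with neither pair held 169 CPM of CDH2, about the level of the neural class, and neural cells with exactly 1 UMI held 118 CPM. Empty droplets held 16.4 to 58.2 CPM of DLX5 and 31.3 to 139 CPM of SOX21, so that free RNA can give a cell its single UMI. After each cell was thinned to 2000 UMIs, 3.45 to 10.3% of DLX5- or DLX6-positive cells had a UMI of SOX21 or SOX1, against 3.37 to 5.23% of TWIST1-positive mesoderm cells, which should lack them, and 16.3 to 35.9% of cells without DLX5 and DLX6. Without thinning the first share was 10.8 to 36.3%. Thinning left out 1577 to 6203 shallower cells per library.

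Markers of other cell types were counted in both classes. The counts of markers higher in a class come from the test defined in the next paragraph. In it 20.3% of all genes were higher in the non-neural and 18.4% in the neural class. With stage, 6.44% of all genes moved toward the non-neural and 4.92% toward the neural class. The sums took all listed markers found in the data, tested or not. The summed level of 20 mesoderm markers was 25.5 to 121 CPM in the non-neural and 22.1 to 80.9 CPM in the neural sums. That of 17 endothelium and blood markers was 13.7 to 40.7 and 13.4 to 28.1 CPM. Sums were higher for 14 endoderm markers, at 135 to 510 and 192 to 345 CPM, and of the 10 tested 3 were higher in each class. Markers of the notochord and prechordal plate, the axial mesoderm under the neural plate, moved with the neural class: 9 of 11 were higher there and none in the non-neural class, at sums of 109 to 875 against 42.4 to 365 CPM. Crest markers moved with the non-neural class, with 8 of 10 higher and sums of 109 to 339 against 80.5 to 144 CPM, although the NC gene FOXD3 was at 0 by the rule. The rule also kept 1153 cells with TFAP2A, a factor of NNE and NC, out of the neural class, with no such condition for the non-neural class. Over 20 alternative settings, among them the rule without that condition, 6 to 8 crest markers were higher in the non-neural class and 0 to 1 lower. Of 11 tested cardiac markers, 5 were higher in the non-neural and 2 in the neural class. The 15 cardiac markers in the data had sums of 237 to 488 and 231 to 639 CPM. At 7ss their sums were higher in the neural class (639 and 587 against 374 and 332 CPM), and with stage 4 moved toward the neural and 1 toward the non-neural class. NKX2-5, a cardiac and pharyngeal transcription factor of this list chosen after its values were seen, was at 7.19 to 70.7 CPM in the non-neural and 0.858 to 8.39 CPM in the neural sums. The part of such cells in the results below was not tested.

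The main comparison took the difference between the classes within each library, over 8 pairs, by edgeR's quasi-likelihood test, with p-values adjusted over all 11192 genes tested (Benjamini-Hochberg). With an adjusted p under 0.05, 4331 genes (38.7%) differed, 2274 (20.3%) higher in the non-neural and 2057 (18.4%) higher in the neural class. Of these, 1034 were higher in the non-neural class in all 8 pairs and 1280 in the neural class in all 8. The median difference over all genes was -0.00266 on the log2 scale. The p-values measure the spread between these libraries, which are independent samples of pooled embryos per the study's methods, and the cells were chosen by genes measured in the same cells. Gene lists below are described by how many members passed this test, and those percentages are the shares over all genes. The lists were chosen with earlier results of these data known, so no count is a test of its list.

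The transcription factors of the NNE separated the classes most widely. Of 18 tested non-neural regulators, 15 were higher in the non-neural class and 1, KLF4, in the neural class, with a median log2 difference of 4.33. DLX3, the third DLX gene of this tissue and not part of the rule, had 17.3 to 40.0 CPM in the 8 non-neural sums, with a median of 26.2. Its neural levels were 0.0774 to 0.789 CPM, so the classes did not overlap. The log2 difference was 6.20 (SE 0.19, n = 8 pairs, adjusted p = 7.72e-10 by edgeR). GATA2 had 134 and 150 CPM in the non-neural sums of the HH5 libraries, 111 and 103 in those of 1ss, 83.9 and 61.3 in those of 4ss and 24.3 and 27.0 in those of 7ss. Its neural levels were 0.410 to 11.8 CPM, below every non-neural sum (log2 difference 4.98, SE 0.20, adjusted p = 2.76e-09). Its relative GATA3 differed by the same amount (4.98, SE 0.22), with 10.9 to 60.8 against 0.303 to 2.46 CPM. MSX2, a homeobox target of BMP signalling, was at 5.88 to 84.4 CPM in the non-neural class, highest at 7ss, and between 0.309 and 2.41 CPM in the neural class (5.01, SE 0.25). TFAP2C (4.50, SE 0.27), the TEAD co-factor VGLL1 (4.69, SE 0.26) and the hypoxia-inducible factor EPAS1 (4.35, SE 0.23) followed.

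Among the genes with the widest difference were some that are not regulators. UPK1B, a tetraspanin of epithelial membranes, was at 10.5 to 50.3 CPM in the non-neural and 0 to 1.14 CPM in the neural sums (log2 difference 6.13, SE 0.25). PADI1, which converts arginine to citrulline in epidermal proteins, was at 9.15 to 33.5 against 0 to 1.57 CPM (5.58, SE 0.25). HAPLN1, a link protein that ties hyaluronan to proteoglycans of the extracellular matrix, was the most abundant of these genes. The non-neural sums gave 99.6 and 76.4 CPM in the HH5 libraries, 221 and 283 in those of 1ss, 395 and 298 in those of 4ss and 251 and 246 in those of 7ss, and its neural levels lay between 4.89 and 18.0 CPM (4.49, SE 0.25, adjusted p = 4.26e-08). The plot of genes that differ between the classes shows that GATA2 was lower and MSX2 higher at 7ss than at HH5 in the non-neural class, both apart from the neural sums at every stage.

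**Figure D1:**
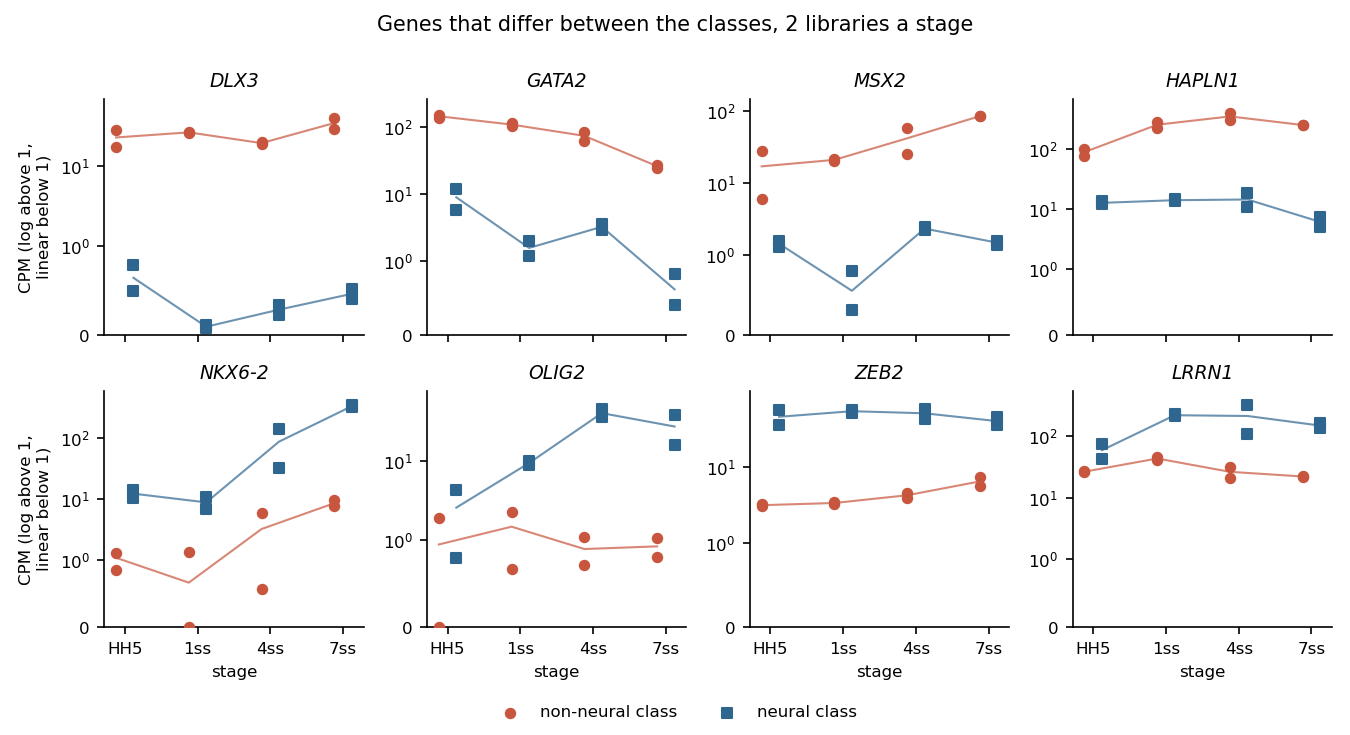
Level of 8 genes in the summed cells of each class, in CPM (logarithmic above 1 and linear below), against stage. Each point is 1 library, circles the non-neural and squares the neural class, and lines join the means of 2 libraries. DLX3, GATA2, MSX2 and HAPLN1 lie higher in the non-neural class in all 8 libraries, and NKX6-2, OLIG2, ZEB2 and LRRN1 in the neural class.

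Placode genes were also on the non-neural side, and border and NC genes were split, with more of them on that side. Of 12 placode genes tested, 10 were higher in the non-neural class and none in the neural class, with a median log2 difference of 1.86. EYA2, a phosphatase and co-activator of the preplacodal ectoderm, was at 9.15 to 74.4 CPM in the non-neural and 2.47 to 8.53 CPM in the neural sums, which did not overlap (2.99, SE 0.21). Of 22 border and NC genes, 13 were higher in the non-neural and 6 in the neural class. The rule kept cells with TFAP2A out of the neural class only. Over 20 alternative settings, among them the rule without that condition, these counts were 9 to 13 and 3 to 7. PAX7 (2.09, SE 0.20) and SNAI2 (1.74, SE 0.17), factors of the border and premigratory NC, were higher in the non-neural class, while the related repressor SNAI1 (-1.73, SE 0.15) and SOX9 (-0.77, SE 0.15), which has roles in NC and neural progenitors, were higher in the neural class.

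On the neural side, 14 of 24 tested neural plate regulators were higher in the neural class and 3 in the non-neural class, with a median log2 difference of -0.58. The list therefore moved less as a whole than the non-neural list, and its members differed widely. NKX6-2, a homeobox factor of ventral and midbrain neural progenitors, had 0 to 9.48 CPM in the non-neural sums. The neural sums gave 14.2 and 10.3 CPM in the HH5 libraries, 6.96 and 10.6 in those of 1ss, 32.5 and 143 in those of 4ss, and 348 and 324 in those of 7ss. It was higher in the neural class in 8 of 8 pairs (log2 difference -4.96, SE 0.17, adjusted p = 8.50e-10). ZEB2, a zinc-finger factor that represses BMP targets, was at 3.03 to 7.37 CPM in the non-neural and 35.4 to 58.8 CPM in the neural sums (-3.39, SE 0.17), without overlap. OLIG2, a bHLH factor of the ventral neural tube, was at 0 to 2.28 CPM in the non-neural sums (-4.08, SE 0.43), and RAX, a homeobox factor of the eye field, was at 0.133 to 12 against 1.13 to 70.0 CPM (-3.45, SE 0.27).

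SOX2, the pan-neural SoxB factor that the rule did not use, was at 1.93 to 18.6 CPM in the non-neural and 16.6 to 53.0 CPM in the neural sums, and higher in the neural class in 8 of 8 pairs (-1.98, SE 0.18, adjusted p = 3.08e-06). ZIC1 (-2.03, SE 0.13) and ZIC2 (-1.93, SE 0.20), zinc-finger factors of the neural plate and its border, differed by a similar amount. The 3 listed neural regulators that were higher in the non-neural class were PAX6 (1.61, SE 0.17), IRX1 (2.75, SE 0.31) and NR2F2 (1.02, SE 0.28). PAX6 is also known as a lens and olfactory placode gene, and it was at 18.3 to 175 CPM in the non-neural and 3.15 to 70.9 CPM in the neural sums. OTX2, which marks forebrain and midbrain, was at a mean of 65.3 CPM in the non-neural and 87.5 CPM in the neural sums (-0.43, SE 0.08).

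Other genes with a wide difference toward the neural class were the synaptic protein gene CPLX3 (-3.54, SE 0.21), the membrane protein gene LAMP5 (-3.49, SE 0.21), FOXA1 (-2.89, SE 0.15), a forkhead factor of endoderm and floor plate, and CNTNAP1 (-2.79, SE 0.27), a contactin-associated adhesion protein. The median of FOXA1 over libraries was 20.8 CPM in the neural class, 17.7 CPM in cells with neither gene pair and 11.6 CPM in empty droplets. CPLX3 had a flat level, at 16.3 to 23.4 CPM in all 8 neural sums against 0.866 to 6.53 CPM in the non-neural sums. LRRN1, a leucine-rich repeat membrane protein of the midbrain and neural tube, was at 43.4 to 319 CPM in the neural and 21.3 to 45.7 CPM in the non-neural sums (-2.36, SE 0.19, adjusted p = 8.27e-07).

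Cell adhesion and epithelial genes formed the most uniform group. Of 21 tested keratin and junction genes, 19 were higher in the non-neural class and 1, CLDN10, in the neural class, with a median log2 difference of 1.23, and the call for CLDN10 was lost without either 1ss, either 4ss or either 7ss library. CLDN3, a tight-junction claudin, was at 274 to 611 CPM in the non-neural and 8.03 to 71.0 CPM in the neural sums (3.92, SE 0.30). KRT18, a keratin of simple epithelia, was at 172 to 585 against 20.4 to 77.8 CPM (3.04, SE 0.14, adjusted p = 9.40e-09). KRT24 (2.31, SE 0.22), KRT7 (2.42, SE 0.19) and CDH1 (E-cadherin, the adhesion molecule of epithelia; 1.23, SE 0.17) were higher as well. Of 36 neural cell surface and progenitor genes, 18 were higher in the neural and 8 in the non-neural class, among them NES, the progenitor filament nestin, at 57.6 to 133 CPM in the neural and 27.3 to 47.9 CPM in the non-neural sums (-1.01, SE 0.12).

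In the BMP list 13 of 24 tested genes were higher in the non-neural and 6 in the neural class. The ligand BMP4 was at 25.1 to 52.9 CPM in the non-neural and 2.80 to 12.6 CPM in the neural sums (2.68, SE 0.17), and BMP2 (1.79, SE 0.09) and BMP7 (1.76, SE 0.17) were also higher. The targets and feedback inhibitors of the pathway were higher too: ID3 at 240 to 503 against 60.2 to 123 CPM (2.12, SE 0.10), the decoy receptor BAMBI at 60.3 to 151 against 8.90 to 24.6 CPM (2.89, SE 0.10, adjusted p = 1.17e-09) and the inhibitory SMAD6 (1.58, SE 0.08). The secreted antagonists CHRD, FST and NOG were among the 6 genes on the other side. BMPER, a further secreted factor of the list, also differed between the classes. At HH11 it was higher in the non-neural sum, at 11.5 against 0.388 CPM. CHRD (chordin) was at 1.73 to 14.9 CPM in the non-neural and 16.9 to 110 CPM in the neural sums (-3.20, SE 0.19), and FST (follistatin) differed by -1.74 (SE 0.16). NOG (noggin) was at means of 1.53 and 2.87 CPM (-0.94, SE 0.28), and its call was lost without 4ss replicate 2 (adjusted p = 0.0736 by edgeR). CHRD is also a notochord and prechordal gene, and the markers of those tissues were higher in the neural sums, as given above. Its median over libraries was 60.1 CPM in the neural class, 78.5 CPM in empty droplets and 147 CPM in cells with neither gene pair. The share of free RNA in its neural level was not measured.

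In the Wnt list 8 of 30 tested genes were higher in the non-neural and 10 in the neural class, and the median was -0.05. The ligands WNT6 (3.23, SE 0.16), an ectodermal Wnt, and WNT5A (2.43, SE 0.20) were higher in the non-neural class. The secreted modulators FRZB (-1.40, SE 0.15), at 211 to 1049 CPM in the neural sums, SFRP2 (-0.72, SE 0.12) and RSPO3 (-1.48, SE 0.27) were higher in the neural class. In the FGF list 1 of 15 genes was higher in the non-neural class, FGF12 (1.44, SE 0.12), a member that stays inside the cell, and 4 were higher in the neural class, with the receptor FGFR1 lower in the non-neural sums by a small but steady amount (-0.42, SE 0.04, lower in 8 of 8 pairs). Without HH5 replicate 1 the FGF genes higher in the non-neural class numbered 4.

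Notch genes were split, 3 of 11 higher in the non-neural and 4 in the neural class. The receptor NOTCH1 (-0.51, SE 0.06) and its modifier LFNG (-0.59, SE 0.07) were higher in the neural class and NOTCH2 (0.45, SE 0.07) and the ligand JAG2 (1.67, SE 0.25) in the non-neural class. In the retinoic acid and sonic hedgehog list, 11 of 20 genes were higher in the neural class, and SHH, the ligand of notochord and floor plate, was at 0 to 0.877 against 2.37 to 16.2 CPM (-4.08, SE 0.26). The transducer SMO (-0.68, SE 0.06) and the effectors GLI1 (-1.18, SE 0.19) and GLI3 (-0.57, SE 0.06) were higher in the neural class, whereas DHRS3 (2.34, SE 0.19), which turns retinal back to retinol, was higher in the non-neural class.

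The study asked whether pluripotency genes are kept in the ectoderm, and judged this by NANOG, PouV/Oct4 and KLF4 expressed together in a cell. It also followed single genes over stages in bulk and single-cell RNA sequencing, among other evidence. The classes were compared here for a different list, which holds NANOG. KLF4 was counted with the non-neural regulators above, no value is given for PouV/Oct4, and joint expression was not examined. Of 18 tested pluripotency and early epiblast genes, 4 were higher in the non-neural and 9 in the neural class, with a median log2 difference of -0.30. NANOG, the homeobox factor of pluripotent cells, was at 3.16 to 29.4 CPM in the non-neural and 3.38 to 23.7 CPM in the neural sums. The ranges overlapped almost wholly, and the difference of -0.03 (SE 0.10) did not pass the test (adjusted p = 0.866 by edgeR). LIN28A, an RNA-binding repressor of let-7, was at means of 238 and 232 CPM, with a difference of 0.08 (SE 0.05, adjusted p = 0.234). Its relative LIN28B (-0.34, SE 0.06), the RNA-binding ubiquitin ligase TRIM71 (-0.54, SE 0.10) and MYCN (-0.95, SE 0.14), a Myc factor of neural progenitors, were each higher in the neural class in 8 of 8 pairs. The widest differences of the list belonged to early ectoderm genes whose roles in the chick are less settled. PDZK1IP1 (4.38, SE 0.25), the protease gene ASTL (4.04, SE 0.40) and FIBIN (3.24, SE 0.29) were higher in the non-neural class, and the carbonic anhydrase CA2 (-2.87, SE 0.26) in the neural class. The median of CA2 over libraries was 28.0 CPM in the neural class and 28.2 CPM in cells with neither gene pair.

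Cell cycle genes differed little. Of 27 tested replication and mitosis genes, 11 were higher in the neural and 1 in the non-neural class, but the median log2 difference was -0.09. CENPF, a kinetochore protein, differed most (-0.78, SE 0.06), and PCNA, the replication clamp, was at means of 631 and 743 CPM (-0.18, SE 0.03).

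The difference between the classes changed with stage in 1272 genes (11.4% of 11192), by a test over the class difference of all 4 stages. From HH5 to 7ss it moved toward the non-neural class in 721 of these (6.44%) and toward the neural class in 551 (4.92%). Of the 1272, 783 also differed between the classes over all stages. Some libraries weighed on this count. It was 2120 without 4ss replicate 1 and 2108 without 4ss replicate 2, and 814 and 807 without 7ss replicates 1 and 2. With each cell thinned as above it was 263 of 7832 genes tested. How much of that drop came from the depth gap between the classes at 7ss was not tested. The contrast of 7ss with HH5 alone called 1423 genes (12.7%), 771 (6.89%) toward the non-neural and 652 (5.83%) toward the neural class, and 426 without HH5 replicate 1, 847 without 7ss replicate 1 and 894 without 7ss replicate 2.

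Adhesion and epithelial genes moved toward the non-neural class as a list. For keratins and junctions the median log2 difference went from 0.68 at HH5 to 1.98 at 7ss, through 1.15 and 1.32 at the stages between, and 13 of 21 genes passed the test of change with stage, all 13 toward the non-neural class (12 to 14 when single libraries were left out). Placode genes went from 0.98 to 2.22, with 6 of 12 passing, all toward the non-neural class. The regulators of the NNE were already far apart at HH5, at a median of 3.66, and were at 4.48 at 7ss, with 7 of 18 passing toward the non-neural and 2 toward the neural class. For the neural plate regulators the median was -0.61 at HH5 and -0.79 at 7ss, and the median change of the members was -0.52 (-0.67 to -0.06 when single libraries were left out), while 6 of 24 genes moved toward the non-neural and 7 toward the neural class, the latter 12 without 4ss replicate 2. The median change over all genes from HH5 to 7ss was 0.01.

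**Figure D2:**
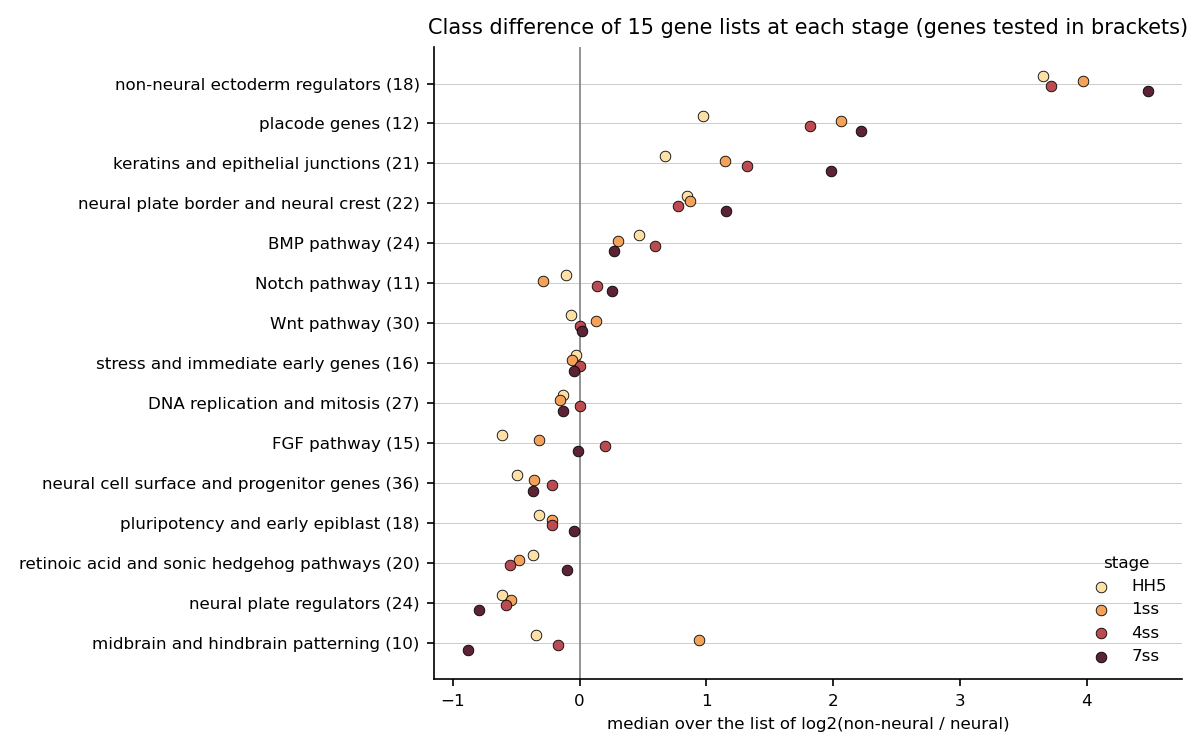
Median over each of 15 gene lists of the log2 ratio of the non-neural to the neural class at each stage, with the number of genes tested in brackets. Values right of 0 are higher in the non-neural class. Keratins and junctions move from 0.68 at HH5 to 1.98 at 7ss, and non-neural regulators start at 3.66.

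EPCAM, an adhesion protein of epithelial cells, shows in which class the level moved. The non-neural sums gave 648 and 849 CPM in the HH5 libraries, 1093 and 986 in those of 1ss, 1156 and 567 in those of 4ss, and 673 and 551 in those of 7ss. The neural sums gave 687 and 933, 889 and 680, 549.6 and 209.9, and 154 and 137 CPM in the same libraries. The classes thus overlapped at HH5 and were apart at 7ss, and the class difference moved by 2.17 (SE 0.10) on the log2 scale (adjusted p = 4.78e-14 for the change over all stages, by edgeR). Between HH5 and 7ss EPCAM fell by 2.41 (SE 0.37) in the neural class (adjusted p = 0.00652). In the non-neural class it had a log2 change of -0.28 (adjusted p = 0.573). The neural fall did not pass without 7ss replicate 1 (adjusted p = 0.0577) or without 7ss replicate 2 (0.0716).

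CLDN3 was lower in the neural class from the start, at 65.9 and 71.0 CPM in the HH5 libraries, 34.7 and 46.7 in those of 1ss, 41.0 and 16.8 in those of 4ss, and 8.27 and 8.03 in those of 7ss. The non-neural sums held 363 and 287 CPM in the HH5 and 313 and 274 CPM in the 7ss libraries. The ratio of the class means was 4.75 at HH5 and 36.0 at 7ss, and CLDN3 fell by 3.00 (SE 0.37, adjusted p = 0.00239) in the neural class, a call that held without each library in turn. CDH1, CLDN1, KRT24, the plakoglobin gene JUP and the splicing regulator ESRP2, which favours epithelial isoforms, also fell in the neural class, by 1.86, 1.72, 1.82, 1.48 and 2.38. Each of these calls was lost without 7ss replicate 1 (adjusted p = 0.184, 0.102, 0.0781, 0.0706 and 0.0663), and those of CDH1, JUP, KRT24 and ESRP2 also without other libraries. In all, 9 of 20 tested keratin and junction genes fell in the neural class, and 2 to 11 when each library was left out in turn, lowest without 7ss replicate 1, while 1 rose. In the non-neural class 2 rose and 1 fell. Over all genes 4.65% fell in the neural class.

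N-cadherin moved in both classes and in opposite directions. CDH2 had 50.1 and 73.8 CPM in the non-neural sums of HH5, 62.3 and 58.6 in those of 1ss, 41.0 and 33.2 in those of 4ss and 19.99 and 22.1 in those of 7ss. The neural sums of the same libraries gave 77.8 and 98.6, 159.6 and 179, 217 and 167, and 254 and 259 CPM. The neural sums were above the non-neural sums at every stage, and the ranges of the classes did not overlap. The class difference moved by -3.02 (SE 0.13, adjusted p = 4.34e-14). CDH2 fell by 1.53 (adjusted p = 0.00556) in the non-neural class, which was lost without 7ss replicate 1 (0.0810) or 7ss replicate 2 (0.0581), and rose by 1.62 (SE 0.22, adjusted p = 0.00322) in the neural class. CDH11, a mesenchymal cadherin, had a different course. It had 162 and 177 CPM in the neural sums of HH5 and 17.5 and 16 CPM in those of 7ss, where the classes overlapped, and it fell by 3.27 (SE 0.30, adjusted p = 0.000562) in the neural class.

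**Figure D3:**
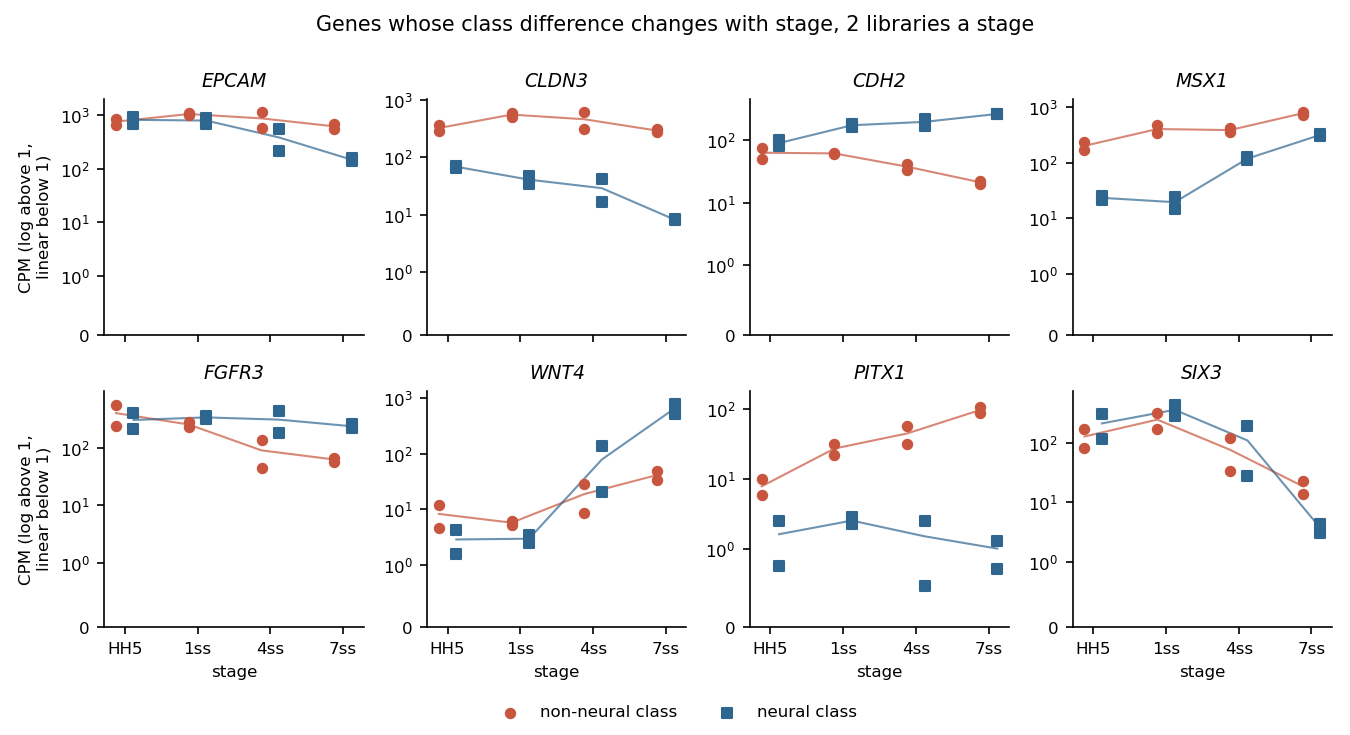
Level of 8 genes whose class difference changes with stage, in CPM (vertical, logarithmic above 1 and linear below) against stage. Each point is 1 library, circles the non-neural and squares the neural class, and lines join the means of 2 libraries. EPCAM and CLDN3 fall in the neural class, CDH2 moves in opposite directions, MSX1 climbs in both classes, WNT4 climbs in the neural class to 518 and 767 CPM, and SIX3 falls in both classes.

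Among neural genes, WNT4, a secreted Wnt of the midbrain and neural tube, changed sides. It had 12 and 4.57 CPM in the non-neural sums of HH5 and 33.7 and 49.0 CPM in those of 7ss. Empty droplets held 2.02 to 386 CPM of WNT4 over the libraries, and the share of free RNA in the non-neural levels was not measured. The neural sums gave 4.22 and 1.58 CPM in the HH5 libraries, 2.55 and 3.43 in those of 1ss, 20.5 and 136 in those of 4ss, and 518 and 767 in those of 7ss. The class difference moved by -5.46 (SE 0.30, adjusted p = 4.93e-13), and WNT4 rose by 7.47 (SE 0.92, adjusted p = 0.00239) in the neural class. EN1, a homeobox factor of the midbrain-hindbrain boundary, had 0.929 and 0 CPM in the neural sums of HH5 and 53.4 and 131 CPM in those of 7ss (change of the class difference -3.95, SE 0.67). PAX2 and EN1 rose in the neural class by 7.08 and 6.83, and each call was lost without HH5 replicate 1 (adjusted p = 0.0960 and 0.0806), that for EN1 also without HH5 replicate 2 (0.0558). The growth factor TGFB2 moved apart in both classes, from 13.1 and 11.1 to 3.33 and 4.56 CPM in the non-neural and from 7.43 and 4.73 to 34.6 and 40.4 CPM in the neural sums (-4.11, SE 0.27).

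For FGFR3 and FEZF2 the difference moved toward the neural class with a lower level on the non-neural side. In the FGF list as a whole, 7 of 15 tested genes moved toward the non-neural and 3 toward the neural class. The shares over all genes were 6.44% and 4.92%. The median log2 difference of the FGF list was -0.61 at HH5 and -0.01 at 7ss. FGFR3, an FGF receptor, had 236 and 557 CPM in the non-neural sums of HH5, 225 and 278 in those of 1ss, 135 and 44.4 in those of 4ss and 67.4 and 57.2 in those of 7ss. Its neural levels were 176 to 435 CPM throughout. The class difference moved by -2.21 (SE 0.11, adjusted p = 8.41e-14), and FGFR3 fell by 2.65 (adjusted p = 0.00819) in the non-neural class, a call lost without HH5 replicate 2 (0.0508), 7ss replicate 1 (0.0682) or 7ss replicate 2 (0.0804). FEZF2, a forebrain zinc-finger factor, had 13.6 and 9.80 CPM in the non-neural sums of HH5 and 0 in both of 7ss, which makes it at least 51.4-fold lower against a floor of 3 UMIs over the 2 libraries. The neural sums held 46.6 and 38.6 CPM in the HH5 and 5.11 and 3.04 CPM in the 7ss libraries.

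The anterior genes SIX3 and HESX1 fell in both classes, more so in the neural class. SIX3, a homeobox factor of the forebrain and eye, had 175 and 83.0 CPM in the non-neural sums of HH5 and 14 and 23.3 CPM in those of 7ss. The neural sums gave 315 and 115 CPM in the HH5 libraries, 441 and 288 in those of 1ss, 194 and 27.9 in those of 4ss, and 4.33 and 3.08 in those of 7ss. It fell by 5.83 in the neural class (SE 0.85, adjusted p = 0.00505), a call lost without 7ss replicate 2 (0.0567), and by 2.83 in the non-neural class (adjusted p = 0.0108), lost without 7ss replicate 1 (0.128), 7ss replicate 2 (0.0536) or HH5 replicate 1 (0.0604). Its class difference moved by 3.12 (SE 0.31). HESX1, a forebrain and pituitary homeobox factor, fell by 2.73 in the non-neural class, which was lost without 7ss replicate 1 (0.0587), and by 4.55 in the neural class. RSPO3, a Wnt agonist, fell by 6.83 (adjusted p = 0.000173) in the non-neural and by 5.00 (0.000647) in the neural class, and CYP26A1, which breaks down retinoic acid, by 4.42 and 5.61. The CYP26A1 calls were lost without 7ss replicate 1 in both classes (0.0525 and 0.0745), and that of the neural class also without 7ss replicate 2 (0.0609).

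PITX1, TFAP2B, FOXI2 and SCIN rose in the non-neural class, and their class difference moved toward it. PITX1, a homeobox factor of the oral ectoderm and anterior placodes, had 9.95 and 5.88 CPM in the non-neural sums of HH5, 32.3 and 22.5 in those of 1ss, 58.2 and 31.7 in those of 4ss, and 106 and 88.1 in those of 7ss. It was at 0.536 to 2.86 CPM in the neural sums, and the class difference moved by 4.55 (SE 0.45, adjusted p = 3.79e-08). TFAP2B, an AP-2 factor of ectoderm and NC, had 1.23 and 0 CPM in the non-neural sums of HH5, 74.1 and 80.0 CPM in those of 7ss and no more than 2.32 CPM in the neural sums (change of the difference 3.50, SE 0.94). In HH5 replicate 2 it was at 0 in both classes, so its HH5 difference rests on HH5 replicate 1. FOXI2, a forkhead factor of placodal ectoderm in other vertebrates, was at 4.27 and 5.23 CPM in the non-neural and 4.79 and 9.46 CPM in the neural sums at HH5. At 7ss its levels were 48.9 and 62.8 against 2.25 and 1.78 CPM, a change of the difference by 5.10 (SE 0.35, adjusted p = 2.86e-11). SCIN, an actin-severing protein, had 1.52 and 1.96 CPM in the non-neural sums of HH5 and 84.1 and 90.6 CPM in those of 7ss. Its class difference moved by 5.17, but the neural sum of HH5 replicate 2 held none of its UMIs, and without HH5 replicate 1 the fitted change was -1.20. HOMER2, a scaffold protein used as a preplacodal marker, moved by 1.85 (SE 0.19, adjusted p = 2.72e-07).

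For MSX1, DLL1 and ID1 the classes drew closer. MSX1, a BMP-responsive homeobox factor, was at 234 and 169 CPM in the non-neural and 25.2 and 21.3 CPM in the neural sums at HH5, and at 821 and 739 against 303 and 331 CPM at 7ss. It rose by 1.95 (adjusted p = 0.00262) in the non-neural and by 3.79 (0.000267) in the neural class, calls that held without each library, and the class difference moved by -1.88 (SE 0.14, adjusted p = 1.38e-14). The Notch ligand DLL1 was at 6.26 and 9.15 against 0.643 and 0.789 CPM at HH5 and at 5.86 and 6.49 against 7.58 and 7.83 CPM at 7ss, so that the sign of the difference turned (change -3.60, SE 0.45). HES5, a Notch target that holds neural progenitors undifferentiated, had 88.5 and 65.3 against 91.9 and 71.8 CPM at HH5 and 72.1 and 85.6 against 412 and 387 CPM at 7ss, so its classes overlapped at HH5 and not at 7ss (change -2.27, SE 0.27, adjusted p = 1.14e-06). The BMP target ID1 differed by 1.14 (SE 0.12) at HH5 and by 0.01 (SE 0.11) at 7ss.

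**Figure D4:**
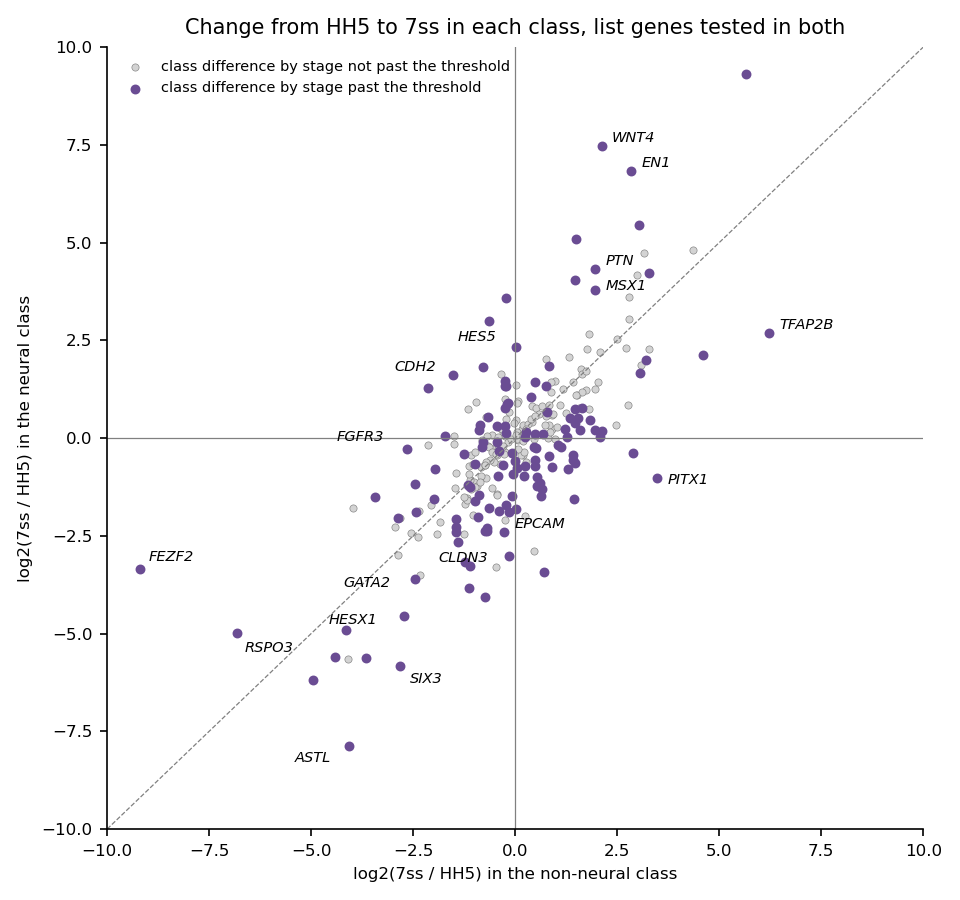
Change from HH5 to 7ss on the log2 scale in the non-neural class (horizontal) and the neural class (vertical) for 289 list genes tested in both. Each point is 1 gene, purple for the 129 whose class difference changes with stage past the threshold and grey for the others, and the dashed line marks an equal change. SIX3, HESX1 and RSPO3 fall in both classes, WNT4 and MSX1 lie higher at 7ss in both, and CDH2 moves down in one and up in the other. Genes at 0 in a class and stage, such as FEZF2, have no bounded fold.

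Within each class the stages were compared between libraries, 7ss with HH5, on 8 sums. In the non-neural class 910 of 10248 genes (8.88%) passed, 421 (4.11%) up and 489 (4.77%) down. In the neural class 945 of 11198 (8.44%) passed, 424 (3.79%) up and 521 (4.65%) down. Of these, 141 rose in both classes, 213 fell in both, 4 rose in the non-neural and fell in the neural class, and 3 did the reverse. These counts depended on single libraries. Without 7ss replicates 1 and 2 they were 122 and 177 in the non-neural and 115 and 96 in the neural class, and without 4ss replicates 1 and 2 they were 1907 and 1906, and 2338 and 2392. Without 1ss replicates 1 and 2 they were 502 and 510, and 386 and 345, without HH5 replicate 2 they were 371 and 271, and without HH5 replicate 1 788 and 500. Of the list genes, 88 passed in the non-neural class and 20 did so without each library in turn, and in the neural class 101 and 19.

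Among the pluripotency and early epiblast genes, 9 of 17 tested fell and none rose in the non-neural class, and 10 of 18 fell and none rose in the neural class, with 5 to 9 and 4 to 11 falling when single libraries were left out, fewest without 7ss replicate 1 and 7ss replicate 2. The falls in both classes include the early ectoderm genes PDZK1IP1, ASTL and CA2. The list was chosen with earlier results of these data known, so these counts do not describe pluripotency factors alone. NANOG had 19.4 and 29.4 CPM in the non-neural sums of HH5, 17.7 and 18.2 in those of 1ss, 7.38 and 9.20 in those of 4ss, and 4.66 and 3.16 in those of 7ss. The neural sums gave 21.2 and 23.7, 23.5 and 14.6, 8.76 and 10.1, and 4.50 and 3.38 CPM, so NANOG molecules were counted in both classes at every stage. The share of free RNA in these levels was not measured. NANOG fell by 2.57 (SE 0.36, adjusted p = 0.00262) in the non-neural and by 2.43 (SE 0.32, adjusted p = 0.00322) in the neural class, the latter not without 7ss replicate 2 (0.0519), and the class difference changed by 0.02 (SE 0.30, adjusted p = 0.963). SALL4, a zinc-finger partner of NANOG, fell by 1.46 (adjusted p = 0.00651) and 2.07 (0.00124), the non-neural call being lost without 7ss replicate 1 (0.115). It remained at 70.9 and 113 CPM in the non-neural and 72.6 and 92.7 CPM in the neural sums at 7ss. LIN28A had log2 changes of 0.03 and -0.02 (adjusted p = 0.945 and 0.966).

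Some genes of the early NNE had wider falls. PDZK1IP1 had 93.3 and 56.8 CPM in the non-neural sums of HH5 and 2.13 and 2.81 CPM in those of 7ss (fell by 4.95, SE 0.40, adjusted p = 6.52e-05). NOXO1, an organiser of NADPH oxidase, fell by 4.42 (SE 0.47) from 62.7 and 96.0 to 4.00 and 3.16 CPM, and GATA2 fell by 2.47 (SE 0.23, adjusted p = 0.000182). Over the same interval TFAP2B rose by 6.21 (SE 0.48, adjusted p = 5.46e-05), TFAP2D, an AP-2 gene with 0.0948 and 0 CPM in HH5 and 28.5 and 20.9 CPM in 7ss libraries, by 7.92 (SE 0.91), and HMP19, a neuronal vesicle protein gene, by 4.72 (SE 0.37). PAX6 rose in both classes, by 2.98 and 4.16, and the border factors SNAI2 (3.09, SE 0.35) and PAX7 (3.27, SE 0.46) rose in the non-neural class.

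In the neural class FAM181A, a gene of unsettled function, was at 0 in both HH5 libraries and at 24.5 and 26.1 CPM at 7ss, at least 129-fold higher against a floor of 3 UMIs over the 2 HH5 libraries. NKX6-2 rose by 4.74 (SE 0.66, adjusted p = 0.00396) and PTN, a secreted heparin-binding growth factor, by 4.31 (SE 0.33, adjusted p = 0.000267). GRP, a neuropeptide gene, fell by 7.63, from 30.5 and 17.3 to 0.217 and 0.0342 CPM, which was lost without HH5 replicate 1 or without 7ss replicate 2, and CA2 fell by 5.61 (SE 0.44, adjusted p = 0.000267), from 165 and 223 to 3.68 and 3.86 CPM. Of 10 midbrain and hindbrain genes 7 rose in the neural class and none fell, and 2 to 7 rose when single libraries were left out, fewest without HH5 replicate 1.

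The HH11 library held 656 non-neural and 2086 neural cells. With 1 library there is no test. Of 2062 genes called higher in the non-neural class and measured with at least 10 UMIs in the HH11 sums, 1683 (81.6%) were higher there too, where 45.9% of all 10495 genes were. Of 1988 called lower, 1661 (83.6%) were lower, against 54.1% of all. Of the 12 genes named for the widest difference each way, 10 kept their side toward the non-neural and 9 toward the neural class. Some other genes named above lay on the opposite side, among them PAX7 at 23.3 CPM in the non-neural and 35.85 CPM in the neural sum. SNAI1 was at 5.57 and 2.03 CPM and SOX9 at 8.52 and 5.52 CPM. FOXI2 was at 736 CPM in the non-neural and 20.5 CPM in the neural sum, SCIN at 213 and 2.71 CPM, and TFAP2B at 116 and 3.39 CPM. DLX3 was at 35.7 and 0.484 CPM, and BMPER at 11.5 and 0.388 CPM. On the neural side EN1 was at 38.7 and 327 CPM and NKX6-2 at 5.57 and 81.1 CPM. GATA2, at 14.1 and 1.07 CPM, was below its 7ss levels in the non-neural class, and SIX3, at 66.2 and 2.23 CPM, was above them.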

How the data were processed

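The deposited count matrices of 9 scRNAseq libraries were used as the authors deposited them: whole UMI counts per gene and barcode, not normalised. Per the labels and the matrix headers the reads were counted with Cell Ranger 6.1.1 (5.0.0 in the header of HH11) on GRCg6a and analysed with Seurat 4, while the methods of the study name other versions. They used an annotation with selected 3' UTRs extended, which affects the levels of those genes. The methods also remove free RNA and doublets, which the deposited counts still hold. The libraries held 5535 to 23489 filtered barcodes, in part more than the cells per sample that the study states.

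Barcodes with at least 500 genes were classed by the rule in the text and their UMIs summed per library and class. The classes, genes and lists were chosen with earlier results of these data known. Genes passing filterByExpr were tested with edgeR 4.0.16 (TMM, quasi-likelihood test, R 4.3.3) with library and class as terms, and a class term per stage for the change with stage. Stage change within a class was fitted without a block. The 9 rule genes were left out. Called means an adjusted p under 0.05. No doublet caller was run. The test was also run on simulated sums with known changes. These did not model the choice of cells by the rule or the depth of single cells. Genes were named as the 12 with the widest class difference each way, the 8 with the widest change each way and the 4 with the widest stage change each way in each class, at 20 CPM or more, plus members of 21 lists with small adjusted p, except that some results are not reported here. Of the lists, members with levels that bear on the text were added after their values were seen. Alternatives were DESeq2 1.42.0, RLE factors, no filter, other limits on genes, mitochondrial share and UMIs, thinning to 2000 UMIs, subtraction of free RNA and each library left out. A further alternative kept cells with TFAP2A in the neural class.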

Additional observations from a re-analysis of the deposited data

Results flagged for a closer look

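Class differences that changed with stage were the results that differed between groups under the same contrast. Each was taken from edgeR's test of the class term over 4 stages, and the value is the class difference at 7ss less that at HH5 on the log2 scale. Toward the non-neural class it was 5.17 for SCIN, 5.13 for TFF2, 5.10 for FOXI2, 4.55 for PITX1, 4.10 for FBLN2, 4.03 for ASTL and 3.50 for TFAP2B. Toward the neural class it was -6.78 for FEZF2, -5.46 for WNT4, -4.57 for CRYBB2, -4.11 for TGFB2, -3.95 for EN1, -3.74 for SST, -3.73 for OLIG2 and -3.51 for RSPO2. FEZF2 was at 0 in the non-neural sums of 7ss, so its value is no bound. TFAP2B was at 0 in both sums of HH5 replicate 2. Without HH5 replicate 1 the value for ASTL was 2.09 and that for CRYBB2 -4.29, and neither passed (adjusted p = 0.119 and 0.268 by edgeR). With 2 libraries a stage no single library could be compared with its group for distance.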

How the results depend on the processing

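The class difference gave 3717 to 4569 genes when each library was left out. It gave 1451 without pairing the sums of a library (no replicate block) and 1565 after thinning. The change with stage gave 573 genes with DESeq2, 16 with no replicate block, 648 without the barcodes of most UMIs, 263 after thinning and 807 to 2120 without single libraries. The 7ss to HH5 contrast gave 632, 60, 793, 310 and 426 to 2039. Stage change in the non-neural class gave 1880 genes with no filter on low counts, 441 without the barcodes of most UMIs, 210 after thinning and 122 to 1907 without single libraries, and in the neural class 1932, 369, 467 and 96 to 2392, and 609 with at least 2 UMIs of the class genes. With the replicate number as a block the 2 classes gave 759 and 597. Across genes, the deviations of replicate 1 from its stage mean correlated between stages by only -0.312 to 0.226. The replicate numbers were therefore taken as names. Over single libraries left out, the change with stage ranged from -1.20 to 5.48 for SCIN, from -1.47 to 7.51 for TFF2 and from -4.38 to 1.12 for OLIG2, each turning sign only without HH5 replicate 1. TFF2 and ASTL did not pass with DESeq2 (adjusted p = 0.640 and 0.157). Of 20 alternatives, the change with stage held in 20 for CDH2 and MSX1 and in 19 for EPCAM, CLDN3 and WNT4. With no replicate block the share of calls toward the non-neural class was 81.2% for the change with stage and 81.7% for 7ss against HH5, against 56.7% and 54.2%. Other shares that moved by over 10 points were 68.0% and 63.8% rising in the non-neural class without 7ss replicates 1 and 2 (46.3% with all), 33.2% rising in the neural class without HH5 replicate 2 (44.9%), and 43.9% and 43.6% for 7ss against HH5 without HH5 replicate 1 and 4ss replicate 1. Low counts limit genes under 1 CPM, where a sum of the shallow HH5 replicate 2 holds 1 or 2 UMIs.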

Other observations

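The trefoil factor gene TFF2, which protects mucous epithelia, was at 2.61 to 31.9 CPM in the non-neural sums, highest in 4ss replicate 1, and at 0 to 3.65 CPM in the neural sums. FBLN2, a fibulin of the extracellular matrix, went from 3.98 and 7.19 CPM at HH5 to 34.3 and 30.5 CPM at 7ss in the non-neural sums and from 7.36 and 7.10 to 2.77 and 3.45 CPM in the neural sums, so that the classes overlapped at HH5 and not at 7ss. SST, the somatostatin gene, went from 317 and 86.9 to 25.5 and 68.4 CPM in the non-neural sums and from 55.1 and 43.4 to 84.8 and 150 CPM in the neural sums. CRYBB2, a crystallin gene, was at 20.4 and 26.7 CPM in the neural sums of 7ss and at 1.20 and 0.702 CPM in the non-neural sums, and RSPO2, a Wnt agonist, at 39.1 and 27.1 against 5.33 and 4.04 CPM.

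Of 16 tested stress and immediate early genes, 4 were higher in the non-neural and 4 in the neural class, the latter 2 without 4ss replicate 2. Over all genes the shares were 20.3% and 18.4%, so the list as a whole stood near them. BTG2 (log2 difference 1.75, SE 0.11), ATF3 (2.05, SE 0.15) and FOS (1.38, SE 0.15) were higher in the non-neural class in 8 of 8 pairs, and HSP90AA1 (-0.37, SE 0.11) in the neural class. Leaving out 4ss replicate 2 ended the call for HSP90AA1 (adjusted p = 0.0577 by edgeR).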
